A study of Mus musculus with 11 samples.

Results

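The smooth muscle contractile apparatus was examined as a set of 33 genes, taken by symbol from the deposited table of normalised values: actins, myosin chains, the enzymes that regulate myosin, and the actin-binding and adhesion proteins of smooth muscle. All 33 were found, 1 row each, among 48709 mouse genes in the count table, and all 33 passed the filter on low counts that left 14757 genes for testing. Aortic arches were dissected at postnatal day 11 from Tgfbr2-G357W/+ mice, which carry 1 mutant allele of the type II receptor for TGF-beta and are used to model the aortic disease Loeys-Dietz syndrome type II (Het, n = 6), and from Tgfbr2-+/+ littermates (WT, n = 5). The labels list no treatment and no strain. They do not say whether animals were pooled, so each library is taken as 1 sample, and p-values measure only the spread between these libraries. Total RNA of the arch was sequenced in bulk, so each value averages over all cells of the tissue. The substitution changes 1 amino acid, which counts per gene do not show; Tgfbr2 itself averaged 41.3 ± 4.29 CPM in WT (mean ± SD, as for all means below) and 39.0 ± 8.22 CPM in Het, where CPM are counts scaled by library size and edgeR's TMM factors.

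Smooth muscle shortens when myosin filaments pull on actin filaments. Calcium bound to calmodulin activates the myosin light chain kinase, which phosphorylates the regulatory light chain, and a myosin phosphatase held back by the kinases Rock1 and Rock2 removes that phosphate. The actin filaments end in dense bodies in the cytoplasm and dense plaques at the membrane, where alpha-actinin, vinculin, talin and filamin pass the force on to the matrix. In the aorta the medial smooth muscle cells carry this apparatus, many of its genes are driven by serum response factor and myocardin, and human mutations in ACTA2, MYH11 and MYLK cause thoracic aortic disease.

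The 11 libraries held 13113467 to 19327935 counts. A count of 0 allows a true level of up to 3 counts, which came to 0.154 to 0.231 CPM. Sex is not in the labels. Xist, the transcript of the inactive X chromosome, had 900 to 1139 counts in WT 1 to 5, Het 1 and Het 2 and at most 10 in Het 3 to 6, while the Y-linked Ddx3y had 1176 to 2039 counts in Het 3 to 6 and 0 elsewhere. Genotype is therefore unevenly spread over sex. Results are also given with a sex score (mean log2 CPM of 4 Y-linked genes minus that of Xist) as a covariate. They are further given in the 7 Xist-positive libraries alone. Every WT library was Xist-positive, so in both fits the Het term rests mainly on Het 1 and Het 2 against WT. These fits are therefore not independent checks. Vascular smooth muscle (VSMC) and endothelium (EC) are the labelled cell types. Of 8 smooth muscle markers outside the set, all 8 were measured, with a sum of 1427 to 2004 CPM, and the 8 endothelial markers summed to 378 to 636 CPM. Markers of fibroblasts (1067 to 1507 CPM), pericytes (5269 to 9562 CPM) and fat (320 to 2717 CPM) were present too. Most of the pericyte sum was a single gene, Rgs5 (4927 to 9265 CPM). Markers of striated muscle, whose actins and myosins resemble those of smooth muscle, were low: 9 heart muscle genes summed to 70.9 to 103 CPM, and 11 skeletal muscle genes to 20.9 to 41.5 CPM in WT and 8.94 to 17.6 CPM in Het. Most of the skeletal sum was Tnnt3, a fast troponin, which fell (log2 fold change -1.63 ± 0.23, SE; edgeR adjusted p = 6.49e-04), while the skeletal myosins Myh1, Myh2, Myh4 and Myh8 had at most 0.360 CPM. In the other marker lists, the fibroblast gene Pi16 fell (-0.62 ± 0.10, 0.00194), the pericyte gene Cspg4 (0.31 ± 0.078, 0.033) and the heart muscle gene Ryr2 (1.07 ± 0.23, 0.0134) rose, and of the 8 smooth muscle markers Aoc3 rose (0.35 ± 0.095, 0.0448) and Ramp1 fell (-0.32 ± 0.083, 0.0336). The 5 red cell markers summed to 528 to 1199 CPM in WT and 297 to 697 CPM in Het; all 5 had fold changes below 0 and none passed. No marker of endothelium, leukocytes, fat, nerve, cartilage or epithelium passed. Whether other cell types had a part in the results below was not tested.

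Serum response factor binds the CArG box, a motif of 10 bases with CC at one end, GG at the other and 6 A or T between them, which reads the same way on both strands. RefSeq promoters (GRCm38.p6, 250 bases before to 50 after the start) were matched for 29 of the 33 members. An exact match to the CArG box lay in 5 of these 29 (17.2%), against 1.81% of the 27025 gene symbols in the table, or in 5 of the members' 35 promoters (14.3%), against 1.63% of all 32851. The matches are printed with up to 25 bases on each side, 5′ to 3′ on the gene's strand, to show the motif known to drive genes of this apparatus where it lies close to a start. Capitals mark the box.
Myl9, chr2:156775278-156775337, plus strand: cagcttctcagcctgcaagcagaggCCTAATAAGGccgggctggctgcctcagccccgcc
Cnn2, chr10:79988519-79988578, plus strand: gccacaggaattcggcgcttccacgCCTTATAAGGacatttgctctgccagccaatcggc
Myl6, chr10:128493025-128493084, minus strand: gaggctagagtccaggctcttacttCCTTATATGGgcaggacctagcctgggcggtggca
Vcl, chr14:20929148-20929205, plus strand: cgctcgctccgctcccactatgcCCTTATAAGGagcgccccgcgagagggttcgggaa
Filip1l, chr16:57549155-57549214, plus strand: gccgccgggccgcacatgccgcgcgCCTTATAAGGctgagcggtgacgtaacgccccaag
In Cnn2, Vcl and Filip1l the box had the same letters. It began 56 bases before the RefSeq start in Cnn2, 62 in Filip1l, 50 in Myl6, 161 in Myl9 and 227 in Vcl. The windows of Filip1l and Myl6 lie inside the annotated genes, so those 2 starts are internal ones. Annotated Filip1l spans 57353093 to 57573126 and Myl6 spans 128490860 to 128494145. A match of letters is no evidence of binding, and boxes outside these windows were not searched. None of the 5 genes passed the test of Het against WT described next, with log2 fold changes of 0.053 for Myl9, -0.36 for Cnn2, -0.058 for Myl6, 0.087 for Vcl and 0.15 for Filip1l.

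Together the 33 genes took 6.10% ± 0.427 (SD, n = 5) of all counts in WT, and in Het they took 6.01% ± 0.427 (SD, n = 6). Their summed level was 57022 to 65400 CPM in WT and 53700 to 67868 CPM in Het, and the Het range enclosed the WT range. Levels were also divided by the joined length of all annotated exons of a gene, which can exceed that of a transcript. This scale therefore compares genes only roughly. Per kilobase of exon, Acta2 stood first in WT at 12320.0 ± 503 CPM per kilobase (SD, n = 5). The regulatory light chain Myl9 at 6540.0 ± 761 and the actin-severing protein Dstn at 2029 ± 438 followed. The smooth muscle heavy chain Myh11 lay at 374 ± 42.1 and the light chain kinase Mylk at 14.02 ± 2.46 CPM per kilobase. The kinases Rock1 (3.19 ± 0.708) and Rock2 (3.85 ± 0.410), the phosphoglucomutase-like adhesion protein Pgm5 (1.395 ± 0.225) and the integrin-linked kinase Ilk (0.810 ± 0.372) came last. Neighbours such as Actg2 (420.4 ± 76.4) and Myh11, or Rock2 and Rock1, did not differ beyond their SDs.

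**Figure D1:**
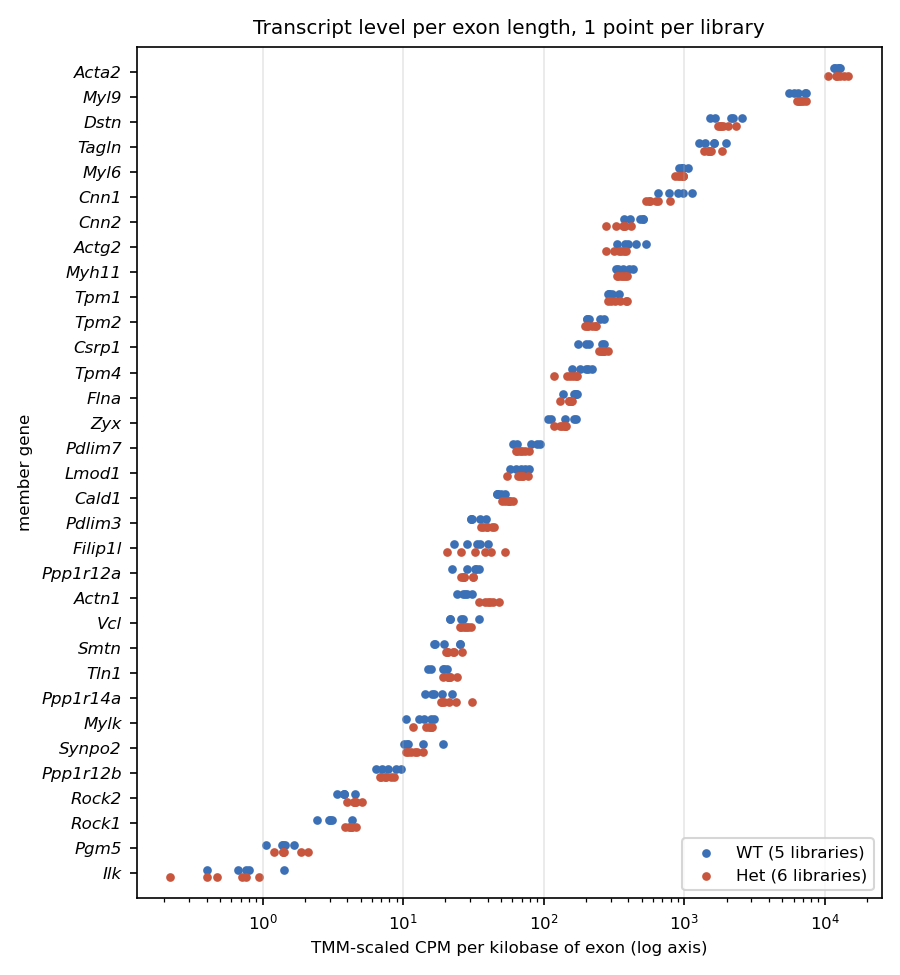
Level of each member per kilobase of exon on a log axis, 1 point per library, WT in blue (5 libraries) and Het in red (6 libraries), ordered by the WT mean. The members span from Ilk to Acta2, and for most of them the WT and Het points cover the same range.

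Some of these levels depend on how reads in overlapping genes were counted, which is not given in the sources used here, and the libraries do not mark strand. Exons of genes on the opposite strand covered 89.7% of the exon bases of Ilk (the transcription factor subunit Taf10 and the RNA-processing gene Rrp8), 67.9% of Tagln (mostly an antisense transcript, Gm48529), 25.5% of Vcl (Ap3m1) and 16.3% of Smtn. For the other 29 members the share was at most 8.2%. Acta2, Actg2 and Myh11 shared none of their transcripts' 75-base words, the length of a read, with another annotated gene, although the actins are close in sequence. Tpm4 shared 12.1%, mainly with the predicted gene Gm7809, and Myl6 5.4%, mainly with Gm5526.

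Most genes of the apparatus showed no detected difference between Het and WT. By edgeR's quasi-likelihood test of the log2 fold change (log2FC, Het against WT, printed ± its standard error) over all genes, with Benjamini-Hochberg adjustment, Actn1 rose, Cnn1 fell and 31 members did not pass an adjusted p of 0.05. That is 2 of 33 (6.06%), against 5.03% of all genes tested, with 1 member up (2.65% of all genes rose) and 1 down (2.38% fell). The median log2 fold change of the members was -0.012 and that of all genes -0.0046, with 16 members above 0 and 17 below. In size, 24 of the 33 changes (72.7%) were within 0.25 of 0 on the log2 scale, compared with 61.7% of all genes and 76.1% of the 1857 genes with a mean of at least 100 CPM. In 1 member, Actn1, every Het library lay above every WT library, a pattern found in 2.41% of all genes, and in none did every Het library lie below (2.2% of all genes). In bulk tissue a lower value can come from fewer cells of a type or from less RNA per cell, and these cannot be told apart.

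**Figure D2:**
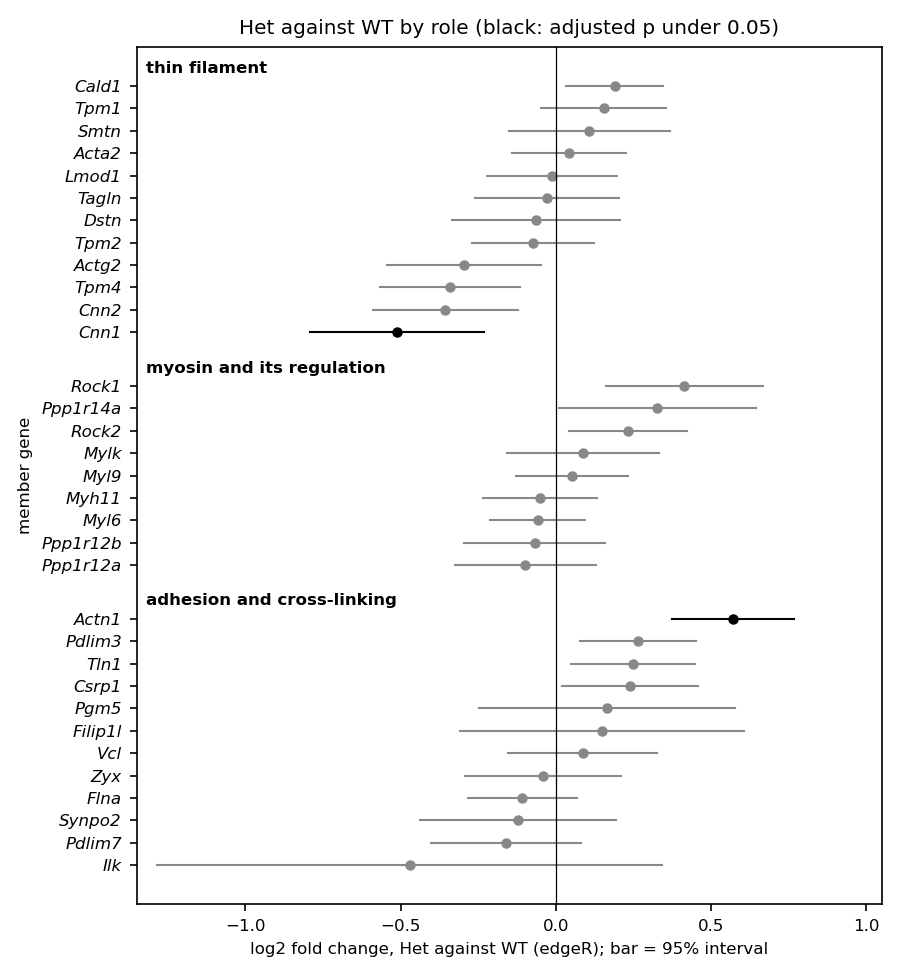
Log2 fold change of Het against WT for each member, by role, with its 95% interval (not adjusted for the number of genes). Actn1 at 0.57 and Cnn1 at -0.51, in black, passed an adjusted p of 0.05, and the other 31, in grey, did not.

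Neither call passed the threshold in the fits that took sex into account, which called fewer genes in all. With the sex score as a covariate, the log2FC of Actn1 was 0.48 (adjusted p = 0.103) and Cnn1 of -0.38 (0.474), so that 0 of 33 members passed, while 0.827% of all genes did. In the 7 Xist-positive libraries, 5 WT against 2 Het, the values were 0.51 (0.143) and -0.37 (0.639), with 0 of 33 members and 0.218% of all genes past the threshold in edgeR. Counted at an unadjusted p under 0.05, 12 members passed in all libraries (19.4% of all genes did), 5 once the sex score was added (10.8% of all genes) and 2 among the Xist-positive libraries (9.11% of all genes).

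Of 12 thin filament genes, 1 fell and 11 did not pass, with a median log2FC of -0.046 and 8 of 12 below 0. The calponins and Tpm4 had the lowest values. Cnn1 (ENSMUSG00000001349, chromosome 9, 22099216 to 22109630, plus strand), calponin 1, binds actin and slows the myosin ATPase. It was measured at 2453, 3093, 2676, 1787 and 2145 CPM in WT 1 to 5 and at 1469, 1652 and 2168 CPM in Het (lowest, median and highest). The Het values were low except that of Het 1, which lay above WT 4 and WT 5, so the groups overlapped. The WT mean was 2431 ± 499 CPM and the Het mean 1706 ± 254 CPM (log2FC -0.51 ± 0.13, adjusted p = 0.0346). The call was lost without WT 1, WT 2 or WT 3 or without any one of Het 2 to 6, with the highest adjusted p, 0.102, without WT 2, and without WT 1 and WT 2 together the value was -0.37 (0.173).

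Cnn2, the calponin shared by smooth muscle and motile cells, was at 1184, 1262, 1248, 921 and 1012 CPM in WT 1 to 5 and 686, 909 and 1025 CPM in Het. WT 4 and WT 5 were the low WT libraries here too, and Het 3 lay above both. The change of -0.36 ± 0.11 did not pass (adjusted p = 0.078), except without WT 4 (0.0361) or with DESeq2 (0.0383).

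Acta2 had the highest level of the set on both scales and a small change. Acta2 (ENSMUSG00000035783, chromosome 19, 34241090 to 34255590, minus strand), the alpha actin of vascular smooth muscle, was at 26177, 27778, 27274, 25717 and 28374 CPM in WT 1 to 5 and at 23305, 27493 and 32199 CPM in Het. Het 1 was the highest and Het 3 the lowest of all 11 libraries, so that the Het libraries spread over a wider range that enclosed all of WT. The log2 fold change was 0.043 ± 0.086, with a 95% interval of -0.14 to 0.23 and an adjusted p of 0.847, and its sign turned without Het 1 (-0.0025). Actg2, the gamma actin typical of visceral smooth muscle, was at 593, 622, 706, 520.5 and 831 CPM in WT 1 to 5 and 433, 546 and 600.3 CPM in Het and did not pass (log2FC -0.30 ± 0.12, adjusted p = 0.166). WT 5 was its highest library, and WT 1 and WT 4 lay within the Het range.

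**Figure D3:**
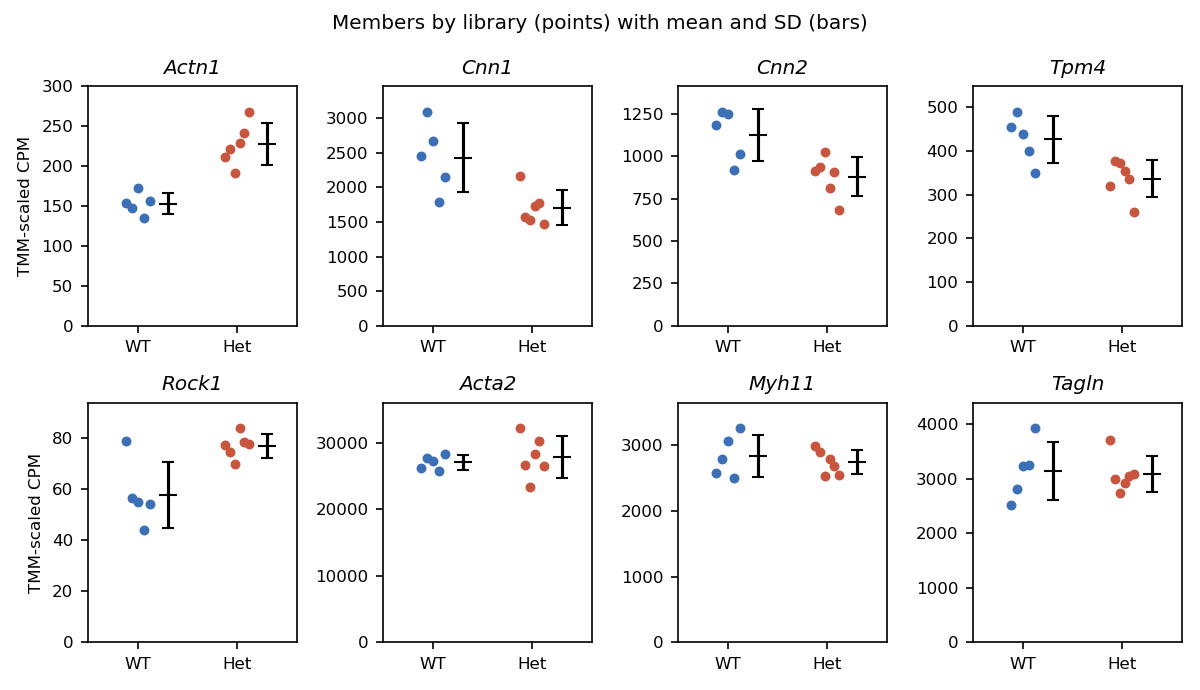
TMM-scaled CPM of 8 members in each WT (blue) and Het (red) library, with mean and SD. The Actn1 points do not overlap between the groups, the Cnn1, Cnn2 and Tpm4 points lie lower in Het with some overlap, and those of Acta2, Myh11 and Tagln cover the same range.

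Tropomyosins lie along the actin filament and control access of myosin to it. Tpm1 was at 1904, 1987, 1889, 1873 and 2246 CPM in WT 1 to 5 and 1863, 2189 and 2537 CPM in Het (log2FC 0.15 ± 0.095, adjusted p = 0.408), with Het 1, Het 5 and Het 6 above every WT library and Het 3 below all of them. Tpm2, the beta form, was at 610.3, 596, 782, 589.6 and 735 CPM in WT 1 to 5 and 569.6, 626 and 688 CPM in Het (log2FC -0.073 ± 0.093, adjusted p = 0.731), with WT 3 the highest library. Tpm4, a form found in many cell types, was at 455, 490.0, 439, 401 and 349.8 CPM in WT 1 to 5 and 261, 345 and 378 CPM in Het, and WT 5 lay inside the Het range. Its change of -0.34 ± 0.11 had an adjusted p of 0.08, and it passed without WT 5 (0.0341), the lowest WT library, and with DESeq2 (0.0423).

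The other thin filament genes showed no detected difference. Tagln, transgelin, an actin-bundling marker of smooth muscle, was at 2524, 2807, 3231, 3253 and 3931 CPM in WT 1 to 5 and 2751, 3028 and 3713 CPM in Het (log2FC -0.028 ± 0.11, adjusted p = 0.934), and the WT range enclosed the Het range. Caldesmon, Cald1, which like calponin inhibits actin-activated myosin, was at 562, 566, 644, 565 and 601 CPM in WT 1 to 5 and 614, 674 and 725 CPM in Het. Only WT 3 reached into the Het range, and the change did not pass (log2FC 0.19 ± 0.073, adjusted p = 0.156). Smtn, smoothelin, a marker of contractile cells, was at 111, 111, 72.2, 74.1 and 85.1 CPM in WT 1 to 5 and 89.1, 95.6 and 114 CPM in Het (log2FC 0.11 ± 0.12, adjusted p = 0.692), with WT 1 and WT 2 higher than the other WT libraries. Lmod1, leiomodin 1, which starts new actin filaments, was at 308, 292, 252, 226 and 273 CPM in WT 1 to 5 and 218, 272 and 306 CPM in Het (log2FC -0.012 ± 0.099, adjusted p = 0.97). Both groups of Lmod1 values covered about the same range. Dstn, destrin, which severs actin filaments, ranged over 2897 to 4959 CPM in WT and 3339.7 to 4437 CPM in Het (log2FC -0.064 ± 0.13, adjusted p = 0.844).

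Of 9 genes of myosin and its regulation none passed in edgeR (3 at an unadjusted p under 0.05, and Rock1 by DESeq2), and their median log2FC was 0.053. The heavy chain Myh11 (ENSMUSG00000018830, chromosome 16, 14194535 to 14291372, minus strand) was at 2577, 2789, 3066, 2505 and 3259 CPM in WT 1 to 5 and 2532, 2740.0 and 2987 CPM in Het, with a log2 fold change of -0.051 ± 0.086, a 95% interval of -0.23 to 0.13 and an adjusted p of 0.808. Myl9, the regulatory light chain that the kinase phosphorylates, was at 6515, 6989.8, 8420.2, 7523 and 8549 CPM in WT 1 to 5 and 7426, 7799 and 8552 CPM in Het (log2FC 0.053 ± 0.085, adjusted p = 0.795). For both genes the Het values fell inside or at the edge of the WT range. The essential light chain Myl6 ranged over 2938 to 3407 CPM in WT and 2744 to 3139.9 CPM in Het (log2FC -0.058 ± 0.072, adjusted p = 0.727), and its 95% interval, -0.21 to 0.095, was the narrowest of the 33.

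The kinase and the phosphatase subunits were also close between the groups. Mylk, the light chain kinase, was at 178, 188, 159.5, 117 and 147 CPM in WT 1 to 5 and 133, 175 and 181 CPM in Het (log2FC 0.086 ± 0.12, adjusted p = 0.75). WT 4 was the lowest and WT 2 the highest library, and Het 3 was low among Het. Ppp1r12a, the targeting subunit of myosin phosphatase, was at 229.9, 261, 266, 179 and 277 CPM in WT 1 to 5 and 207, 218 and 251 CPM in Het (log2FC -0.098 ± 0.11, adjusted p = 0.679), and WT 4 again was the lowest. Its relative Ppp1r12b ranged over 95.6 to 146 CPM in WT and 103 to 129 CPM in Het (log2FC -0.069 ± 0.11, adjusted p = 0.789).

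The inhibitors of the phosphatase had the highest fold changes of this role. Rock1 (ENSMUSG00000024290), a kinase that inactivates myosin phosphatase, was at 78.8, 56.3, 54.9, 43.9 and 54.2 CPM in WT 1 to 5 and 69.7, 77.3 and 83.7 CPM in Het. All 6 Het libraries lay above WT 2 to 5, and WT 1 lay within the Het range. The change of 0.41 ± 0.12 had an adjusted p of 0.0585; without WT 1 it passed at 0.55 (0.00298), and with the sex score it was 0.39 (0.396). It also passed in limma voom (0.0425) and DESeq2 (0.0257). Rock2, the related kinase, ranged over 47.0 to 62.7 CPM in WT and 55.6 to 70.3 CPM in Het (log2FC 0.23 ± 0.090, adjusted p = 0.158). Ppp1r14a, also named CPI-17, a small protein that blocks the phosphatase when phosphorylated, was at 19.5, 22.8, 25.9, 21.9 and 30.6 CPM in WT 1 to 5 and 25.3, 28.0 and 42.0 CPM in Het (log2FC 0.33 ± 0.15, adjusted p = 0.242), and Het 6 was its highest library.

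Of 12 genes of adhesion and cross-linking, 1 rose and 11 did not pass, with a median log2FC of 0.12. The one that rose was Actn1. It encodes alpha-actinin 1, which cross-links actin filaments in dense bodies, dense plaques and focal adhesions (ENSMUSG00000015143, chromosome 12, 80167547 to 80260371, minus strand). It was at 154, 148, 172, 135 and 157 CPM in WT 1 to 5 and at 191, 225 and 268 CPM in Het. The lowest Het library, Het 3, lay above the highest WT library, WT 3. The WT mean was 153 ± 13.5 CPM and the Het mean 227 ± 26.2 CPM (log2FC 0.57 ± 0.093, adjusted p = 0.00194), and the call held when any 1 library was left out (adjusted p of at most 0.00714). It also passed without WT 1 and WT 2 (0.55, 0.0124). It did not pass with the sex score (0.48, 0.103) or in the Xist-positive libraries (0.51, 0.143). Its values in the Xist-positive Het 1 and Het 2 were 211 and 222 CPM.

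The proteins that tie actin to integrins showed no called change. Vcl, vinculin, was at 177, 218, 212, 176 and 284 CPM in WT 1 to 5 and 208, 226 and 249.6 CPM in Het (log2FC 0.087 ± 0.11, adjusted p = 0.741), with WT 5 above all other libraries. Tln1, talin 1, which binds integrin tails, ranged over 147 to 199.97 CPM in WT and 188 to 236 CPM in Het (log2FC 0.25 ± 0.094, adjusted p = 0.15). Zyx, zyxin, a sensor of tension at actin bundles, ranged over 576 to 914 CPM in WT, wider than the 634 to 775 CPM in Het (log2FC -0.041 ± 0.12, adjusted p = 0.902). Both zyxin and talin 1 thus overlapped between the groups. Ilk was at 2.18, 3.89, 1.85, 1.10 and 2.09 CPM in WT 1 to 5 and 0.607, 1.62 and 2.59 CPM in Het at the lowest depth of the set. Its change of -0.47 ± 0.38 (adjusted p = 0.556) had the widest 95% interval of the set, -1.28 to 0.34. Pgm5, a partner of dystrophin and vinculin in dense plaques, ranged over 3.82 to 6.09 CPM in WT and 4.32 to 7.55 CPM in Het (log2FC 0.16 ± 0.19, adjusted p = 0.708).

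Cross-linkers and LIM domain proteins other than Actn1 did not pass either. Flna, filamin A, was at 1567, 1632, 1544, 1287 and 1597 CPM in WT 1 to 5 and 1225, 1441 and 1492 CPM in Het (log2FC -0.11 ± 0.082, adjusted p = 0.521), with WT 4 and Het 6 apart from the rest of their groups. Filip1l, a filamin-interacting protein, ranged over 122 to 214 CPM in WT and 109.9 to 283 CPM in Het (log2FC 0.15 ± 0.21, adjusted p = 0.77). Synpo2, synaptopodin 2, a partner of alpha-actinin and filamin, ranged over 132 to 253 CPM in WT and 137 to 182 CPM in Het (log2FC -0.12 ± 0.15, adjusted p = 0.718). Its WT range was set by WT 5 at 253 CPM. Among the LIM proteins, Csrp1 ranged over 345 to 526 CPM in WT and 483 to 559.6 CPM in Het (log2FC 0.24 ± 0.10, adjusted p = 0.213), with every Het library above WT 1, WT 2 and WT 4. Pdlim3, which binds alpha-actinin, was at 155, 160.2, 180.0, 156 and 199 CPM in WT 1 to 5 and 184, 203 and 227 CPM in Het (log2FC 0.27 ± 0.088, adjusted p = 0.0973), and WT 5 alone reached the Het range. Pdlim3 passed without WT 5, its highest WT library (0.0388). Pdlim7 ranged over 292 to 457 CPM in WT and 308 to 382 CPM in Het (log2FC -0.16 ± 0.11, adjusted p = 0.483).

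The highest and lowest values of the members were unevenly spread over the libraries. In WT, WT 5 was the highest of its group in 14 of the 33 members (42.4%, against 21.3% of all genes) and WT 4 the lowest in 18 (54.5%, against 18.3%). In Het, Het 1 was the highest in 15 (45.5%, against 15.1% of all genes) and Het 3 the lowest in 15 (45.5%, against 19.6%). Other libraries were mixed: WT 1 was the highest in 7 members and the lowest in 8, and Het 6 the highest in 8 and the lowest in 9. WT 1 and WT 2 both lay outside the other 3 WT libraries in 15 members (45.5%, against 38.6% of all genes), above them in 9, such as Zyx, Smtn and Pdlim7, and below them in 6, such as Dstn, Tagln and Csrp1. The spread between WT libraries was small for Acta2 (coefficient of variation 4.08%) and Myl6 (5.63%) and large for Synpo2 (29.7%) and Ilk (46.0%).

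**Figure D4:**
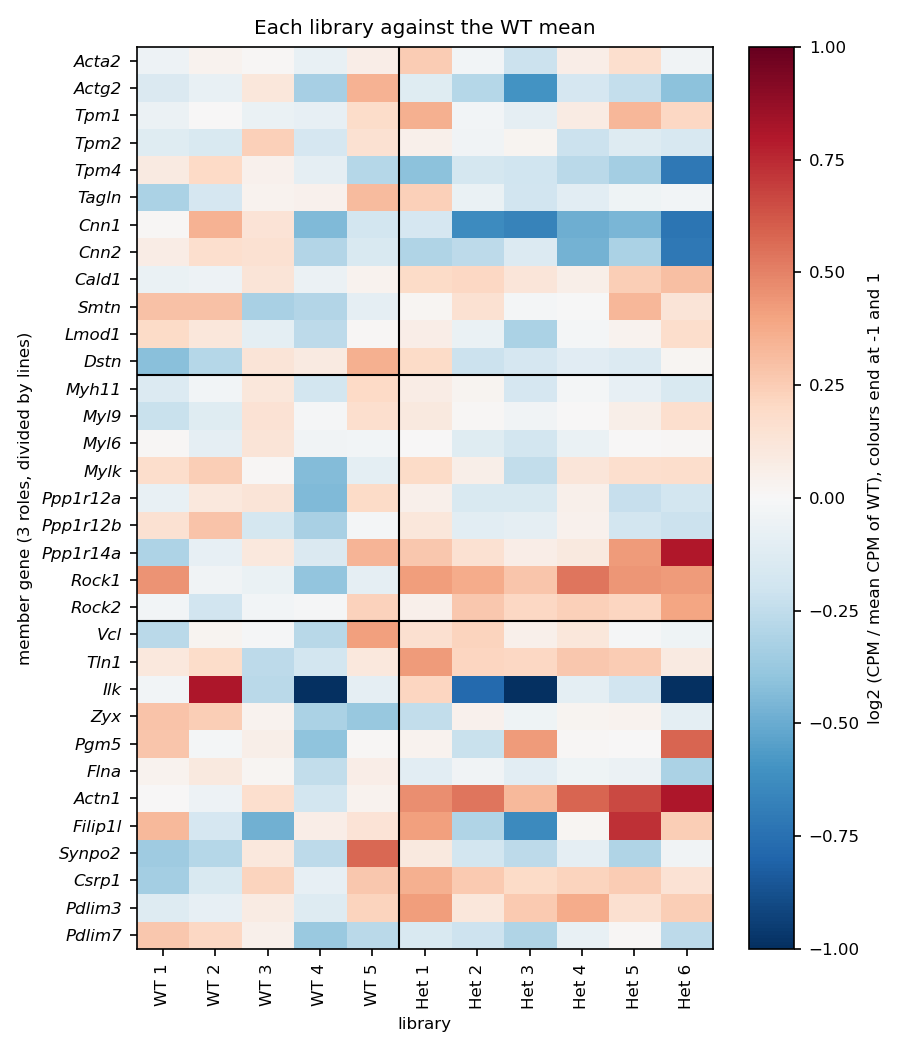
Log2 ratio of each member's CPM in each library (columns) to its WT mean, with the 3 roles divided by lines. The Actn1 row is red in all 6 Het libraries, the Cnn1 and Cnn2 rows are blue in Het, and the WT 4 and Het 3 columns are blue for many members. Some Ilk values lie beyond the ends of the colour scale.

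Ratios of 2 transcripts within a library do not depend on how libraries are scaled, and 8 were compared by exact permutation tests over the libraries. Calponin 1 fell against alpha actin. Acta2 itself had a log2FC of 0.043 and Cnn1 of -0.51, so this ratio largely repeats the Cnn1 result and is not independent of it. The log2 ratio of Cnn1 to Acta2 averaged -3.50 ± 0.28 (SD, n = 5) in WT and -4.04 ± 0.11 (SD, n = 6) for Het, a difference of -0.53 (exact permutation test, 2-sided p = 0.00216, 0.0173 adjusted over the 8 ratios), where 0.00216 is the smallest p that the design can give. Every Het library (highest -3.89, Het 1) lay below every WT library (lowest -3.85, WT 4). The ratio of Actg2 to Acta2 went from -5.39 ± 0.21 to -5.71 ± 0.072, a difference of -0.32 (exact permutation test, 2-sided p = 0.00433, 0.0173 adjusted over the 8 ratios). The WT 4 value of -5.63 lay within the Het range. Actg2 itself had a log2FC of -0.30 by edgeR and did not pass (adjusted p = 0.166), and this ratio is not independent of that value. Without WT 1 and WT 2 together the permutation test of this ratio did not pass (adjusted p = 0.0635). The ratios of Acta2 to Actb and of Myh11 to Myh9 were also lower in Het. By edgeR, Acta2 and Myh11 themselves had log2FC of 0.043 and -0.051, while Actb and Myh9 had 0.38 and 0.48. Acta2 against the cytoplasmic beta actin Actb went from 0.45 ± 0.15 to 0.11 ± 0.26, a difference of -0.34 (exact permutation test, 2-sided p = 0.0173, 0.0346 adjusted over the 8 ratios). Myh11 against the nonmuscle heavy chain Myh9 went from 3.36 ± 0.20 to 2.85 ± 0.33, a difference of -0.51 (exact permutation test, 2-sided p = 0.013, 0.0346 adjusted over the 8 ratios). The last 2 calls were lost when a WT library was left out: Acta2 to Actb without WT 1, 2, 3 or 4 (adjusted p of 0.105, 0.0857, 0.0857 and 0.0952) and Myh11 to Myh9 without any of the 5 (at most 0.0889, without WT 4).

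The other 4 ratios did not pass. Tpm4 to Tpm1 differed by -0.49 (exact permutation test, 2-sided p = 0.0368, 0.0589 adjusted over the 8 ratios), and it passed without WT 5 or Het 3 (adjusted p = 0.0381 for each). Tpm2 to Tpm1 differed by -0.21 (exact permutation test, 2-sided p = 0.123, 0.165 adjusted over the 8 ratios), Cnn2 to Cnn1 by 0.14 (exact permutation test, 2-sided p = 0.299, 0.299 adjusted over the 8 ratios) and Ppp1r14a to Ppp1r12b by 0.38 (exact permutation test, 2-sided p = 0.149, 0.171 adjusted over the 8 ratios). In the Xist-positive libraries the differences were -0.49 for Cnn1 to Acta2, -0.30 for Actg2 to Acta2, -0.21 for Acta2 to Actb and -0.22 for Myh11 to Myh9. With 5 against 2 libraries the smallest exact p is 0.0476, which passes after adjustment only if all 8 ratios reach it, and none passed there. The ratios were not tested with the sex score.

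**Figure D5:**
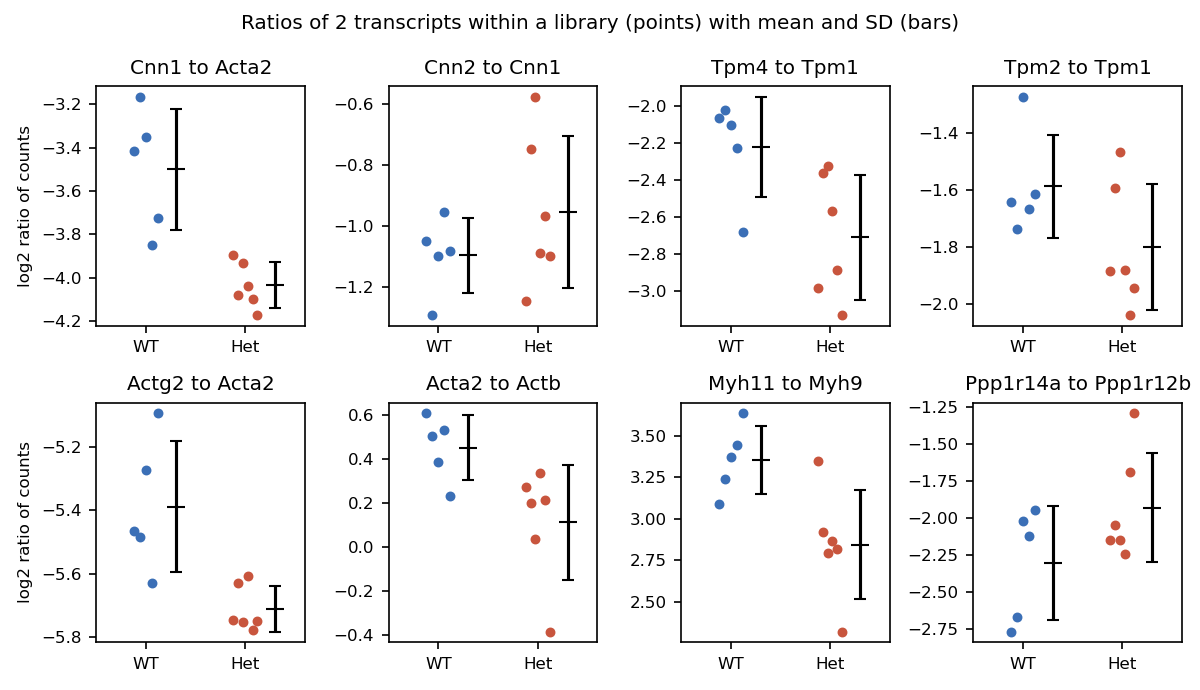
Log2 ratio of the counts of 2 transcripts in each WT (blue) and Het (red) library, with mean and SD. The Cnn1 to Acta2 points do not overlap between the groups, and the other 7 ratios overlap.

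Among partners of the dense plaques and dense bodies outside the set, calls went in both directions. Of 24 tested genes of a list of 26, 3 rose, 4 fell and 17 did not pass, where 2.65% of all genes rose and 2.38% fell. The median log2 fold change was 0.017, and -0.0046 over all genes. Pdlim4, a PDZ and LIM domain protein that binds alpha-actinin, fell from 70.5 ± 18.7 CPM to 22.8 ± 7.09 CPM (log2FC -1.63 ± 0.21, adjusted p = 3.21e-04), and Tes, testin, a LIM protein of focal adhesions, from 325 ± 62.9 CPM to 181 ± 15.1 CPM (log2FC -0.85 ± 0.12, adjusted p = 5.01e-04). For both, no Het library reached the lowest WT library, and both passed with the sex score (-1.28, adjusted p = 0.0368, and -0.79, 0.0466). In the Xist-positive libraries neither passed (-1.33, 0.0897, and -0.81, 0.152). Smtnl2, a smoothelin-like protein, fell by 0.98 ± 0.19 (SE) on the log2 scale (adjusted p = 0.0056). The 3 that rose are named after their values were seen: Sorbs2 (0.41 ± 0.088, adjusted p = 0.0132), Pdlim1 (0.37 ± 0.083, 0.0164) and Lims2, a partner of integrin-linked kinase (0.37 ± 0.085, 0.0195). Pdlim1 was lost without WT 2 (0.0517) and Lims2 without Het 2 (0.0506). Pdlim1 was also lost without WT 1 and WT 2 together (0.0886), with the replicate block (0.0933) and with the column-name number (0.0973). Sorbs2 was lost with the replicate block (0.0715). That block drops Het 6, and the replicate numbers did not pair the libraries. The column-name number, which the labels do not explain, is partly confounded with genotype. WT libraries other than WT 3 share its value with Het 3 and Het 6, while WT 3 shares another value with the remaining Het libraries. The main test leaves this number out and so does not separate it from genotype. Whether it stands for a batch was not tested. Lims2 passed with the sex score (0.0316) but not in the Xist-positive libraries (0.09), without WT 1 and WT 2 together (0.0733), with the replicate block (0.11) or with the column-name number (0.117). With the sex score Smtnl2, Sorbs2 and Pdlim1 did not pass (0.127, 0.311 and 0.127), nor did they in the Xist-positive libraries (0.0623, 0.443 and 0.255).

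Of 18 tested genes for actins, myosins and related proteins outside the set, 2 rose and none fell by edgeR (2.65% and 2.38% of all genes). Of the 18, 13 had fold changes above 0, as had 7258 of the 14757 genes tested, and the median log2 fold change was 0.20. Myh9 went from 277 ± 30.6 CPM to 386 ± 69.98 CPM (log2FC 0.48 ± 0.12, adjusted p = 0.0306) and Myl12b, a regulatory light chain of nonmuscle myosin, from 146 ± 30.2 CPM to 206 ± 24.6 CPM (log2FC 0.50 ± 0.13, adjusted p = 0.0318). Myl12a (log2FC 0.16 ± 0.073, adjusted p = 0.243) is a close copy of Myl12b, and both are uncertain where counting could split shared reads. The call of Myh9 was lost without any of WT 2 to 5, Het 2, Het 4 or Het 5 (at most 0.0636, without WT 4), and that of Myl12b without WT 1, WT 2, Het 2, Het 5 or Het 6 (at most 0.0846, without WT 2). Neither passed with the sex score (0.524 and 0.215) or in the Xist-positive libraries (0.604 and 0.369). Actb (log2FC 0.38 ± 0.12, adjusted p = 0.0852) passed without WT 5 (0.0394), and the gamma actin Actg1 (log2FC -0.14 ± 0.079, adjusted p = 0.356) did not pass.

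Upstream of the apparatus, 1 gene of the 2 lists passed. Of 24 genes of RhoA signalling to contraction, 1 rose and none fell by edgeR, while 5.03% of all genes were called. It was the calmodulin gene Calm2 (log2FC 0.33 ± 0.087, adjusted p = 0.0419). Among the fits that left out 1 library its call held only without WT 4 (at most 0.11, without WT 2), and it did not pass with the sex score (0.314) or in the Xist-positive libraries (0.485). Nor did it pass without WT 1 and WT 2 together (0.185), with the replicate block (0.174) or with the column-name number (0.127). Rhoa itself averaged 655 ± 40.7 CPM in WT and 629 ± 9.53 CPM in Het (log2FC -0.059 ± 0.068, adjusted p = 0.702). Of 8 tested genes of serum response factor and its cofactors none passed in edgeR, and none had an unadjusted p under 0.05. Srf, the factor that binds the CArG box, averaged 11.96 ± 1.32 CPM in WT and 13.1 ± 2.96 CPM in Het (log2FC 0.13 ± 0.16, adjusted p = 0.713), and its sign turned with the sex score (-0.12). Its coactivator Myocd averaged 27.9 ± 3.51 CPM and 33.4 ± 5.19 CPM (log2FC 0.26 ± 0.12, adjusted p = 0.258).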

How the data were processed

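Bulk RNA-seq of 11 aortic arch libraries was analysed. Per the labels' protocols, unstranded Nextera XT libraries were read on a NextSeq as single reads of 75 nt, and the pool was run on 2 sequencing runs, which the files do not separate. The genome build GRCm38 and the tools STAR 2.5.2a, DESeq2, edgeR and limma are named, with no role, per the submitters' processing notes; which program counted reads, and on which annotation, is not given in the sources used here. Raw counts deposited by the authors cover 48733 rows, of which 24 name no mouse gene (4 to 11 counts per library) and were left out. The deposited signal table, named as TMM-scaled CPM, was used only for an alternative test.

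Each library was put in WT or Het by its label. Genes passing filterByExpr (minimum count 10, minimum total 15) were scaled by TMM factors of 0.979 to 1.031 and tested over all 11 libraries in edgeR 4.0.16 (R 4.3.3) with its quasi-likelihood F test, robust setting, and no covariates. P-values were adjusted by Benjamini-Hochberg over all 14757 genes, with 0.05 as the threshold. The standard error is the size of the log2 fold change divided by the square root of F. Ratios of 2 transcripts were log2 ratios of counts with 0.5 added, compared by exact permutation tests over the 462 assignments of libraries to groups. Alternatives used DESeq2 1.42.0 and limma 3.58.1, other filters and scalings, a replicate block, a sex score, the libraries with at least 100 Xist counts, a number in the column names, and the leaving out of libraries. Positions and exon overlaps come from GENCODE M21 (GRCm38), and the upper limits for a count of 0 cover counting error only. The scripts were tested on simulated data.

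The members and lists were chosen with earlier results of these data known. All 33 members are named. Values in each WT library, with the lowest, median and highest Het value, are given for members past the threshold, the 2 of each role with the largest change, and 16 classical genes such as Acta2 and Myh11. They are also given for Actg2, Tpm4 and Pdlim3, which were added outside that rule. Of the other lists, the text names members past the threshold, at most 4 by smallest p, and Srf, Myocd, Rhoa, Actb, Actg1 and Myh9; 1 gene that this rule names is not reported here.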

Additional observations from a re-analysis of the deposited data

Results flagged for a closer look

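In 4 of 66 groups of values (33 members in WT and in Het), 1 library lay apart from the rest by Dixon's 95% criterion; chance gives about 1 such group in 20. Tagln was 3713 CPM in Het 1, against 2751 to 3090 CPM in the other Het libraries. Mylk was 133.4 CPM in Het 3, against 164.4 to 180.5 CPM in the others. Flna was 1287 CPM in WT 4, against 1544 to 1632 CPM in the other WT libraries, and 1225 CPM in Het 6, against 1415 to 1492 CPM in the other Het libraries.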

How the results depend on the processing

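Over 23 alternatives, 19 of the 33 members kept the sign of their log2 fold change, 14 changed it in at least 1 (33 values in all), and 6 changed side of the threshold in at least 1. Each cause was not tested. The number of members that rose, 1, became 2 with DESeq2, limma voom, limma trend at either pseudocount (0.5 or 1) and without WT 1 and WT 2 together, and 0 both in the Xist-positive libraries and with the sex score; leaving out 1 library gave 1 to 2. The added member was Rock1, except without WT 5, where it was Pdlim3. The number that fell, 1, became 3 with DESeq2; it was 0 in the Xist-positive libraries, under the sex score and without WT 1 and WT 2 together; leaving out 1 library gave 0 to 2.

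The replicate numbers did not pair the libraries: deviations of same-numbered libraries from their group means correlated at -0.21 to 0.06. With a replicate block, which drops Het 6, the number that fell became 0 (Cnn1 -0.45, adjusted p = 0.171) and Actn1 still rose (0.52, 0.036).

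Signs turned as follows, in log2 fold changes. With the sex score they were 0.024 for Tpm2, 0.074 for Tagln, 0.047 for Myh11, 0.021 for Ppp1r12b, -0.055 for Pgm5 and -0.12 for Srf. In the Xist-positive libraries they were 0.015 for Tpm2, 0.098 for Tagln, 0.0069 for Lmod1, 0.0094 for Dstn, 0.055 for Myh11, 0.015 for Ppp1r12b, -0.082 for Pgm5 and -0.069 for Srf. Without WT 1 and WT 2 together they were 0.097 for Lmod1, -0.051 for Myl9, 0.099 for Ppp1r12b, 0.17 for Zyx and 0.024 for Pdlim7. With the column-name number, Acta2 had -0.035. Leaving out 1 library gave ranges that include 0 for Acta2 (-0.0025 to 0.090), Tagln (-0.098 to 0.065), Lmod1 (-0.071 to 0.042), Dstn (-0.15 to 0.040), Myh11 (-0.094 to 0.0030), Mylk (-0.0047 to 0.15), Ppp1r12b (-0.14 to 0.012), Zyx (-0.12 to 0.039), Filip1l (-0.0038 to 0.26) and Synpo2 (-0.20 to 0.066).

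Ratio differences that no longer passed in the Xist-positive libraries, where all 8 ratios would have to reach the smallest exact p of 0.0476, were -0.49 (Cnn1 to Acta2), -0.30 (Actg2 to Acta2), -0.21 (Acta2 to Actb) and -0.22 (Myh11 to Myh9). Without WT 1 and WT 2 together they were -0.38 (Actg2 to Acta2) and -0.27 (Acta2 to Actb). Leaving out 1 library, they ran over -0.39 to -0.24 for Acta2 to Actb and -0.61 to -0.41 for Myh11 to Myh9. Tpm4 to Tpm1, which had not passed in all libraries, ran over -0.60 to -0.40. Depth limits the values of Ilk and Pgm5 most, at 0.607 to 7.55 CPM. Those of Ilk also depend on how reads in overlapping genes were counted, since other genes' exons covered 89.7% of its exon bases.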
